A study of Solanum lycopersicum with 9 samples.

Results

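The protein synthesis class is a set of 32 probe sets on the tomato GeneChip that the study assigned to the making of proteins, out of 607 probe sets in its annotated list of NH4+-responsive transcripts. The array holds 10038 tomato probe sets, of which 6670 had a signal of at least 100 on at least 1 array and were tested, all 32 members among them. The study placed a probe set in its list because its signal differed between NH4+ and water, or between the NH4+ doses, on these same arrays. The differences given here for members are therefore a description of what was chosen, and their counts and medians carry no test of the class.

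Proteins are made by ribosomes, which in the plant cytosol consist of a large (60S) and a small (40S) subunit, each built from ribosomal RNA and a set of ribosomal proteins. Initiation factors bring the capped mRNA and the subunits together, release factors free the finished chain at a stop codon, and plastids and mitochondria keep ribosomes of their own that resemble those of bacteria. Genes of cytosolic ribosomal proteins usually exist in several copies in plants and tend to be transcribed together, most strongly in growing tissues such as root tips.

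All plants were the tomato cultivar 76R, a line that forms mycorrhiza normally, potted in soil collected from a farm field, in which its roots also carried mycorrhizal fungi. Water alone, low NH4+ or high NH4+ (0, 6.5 or 65 μg of NH4+-N per g of soil) was injected into a buried ring of soil, and roots inside that patch were harvested 53 h later. Each treatment had 3 arrays, 1 per biological replicate, and total RNA of whole patch roots was amplified, so that a change in the proportion of cells of a type and a change in RNA per cell cannot be told apart. The plants had been transplanted as seedlings some weeks before treatment.

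Values are log2 of the MAS5 signal, a summary that scales each array as a whole, and a fold change is a difference of group means ± SE from the limma fit of all 9 arrays, adjusted by Benjamini and Hochberg's method over 6670 probe sets and called where the false discovery rate was below 10%. Precision is limited by having few arrays, and the same water arrays serve both NH4+ comparisons. The median log2 signal of the arrays lay between 6.87 (low NH4+ replicate 2) and 7.59 (water replicate 3), and these arrays stood farthest apart on the first principal component (37.8% of the variance). The difference between the 3′ and 5′ probe sets of the actin control, which widens as RNA is degraded or amplified less fully, was 0.43 to 0.85 with water, 0.88 to 3.00 with low NH4+ and 0.76 to 1.17 with high NH4+ on the log2 scale. The root transporters AMT1 and PT1 reached a signal of 100 on 9 of 9 arrays, the root genes FER and PT2 on 6 and 3, and the leaf genes CAB5 and CAB6A did so on 0, CAB4 on 6 and PSBO on 4 of the 9 arrays.

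In roots exposed to high NH4+, 22 members were higher than in water and 10 were lower, and no member's high NH4+ arrays overlapped its water arrays. The higher members were mostly proteins of the large ribosomal subunit and clones with no named role, with fold changes of 1.30 to 1.98. The lower ones were likewise mostly ribosomal (3) or without a named role (4), beside eIF-5A1, a cap-binding protein and a release factor. Non-overlap of this kind was seen in 13.4% (higher) and 19.6% (lower) of all probe sets tested. The test called 9 members (28.1%), 4 higher and 5 lower, beside 6.52% of all probe sets tested (2.73% higher and 3.79% lower), and nothing is read from this excess because the same contrast chose the members. The median log2 fold change of the members was 0.46 and that of all probe sets tested was -0.08. The number called rested on single arrays. It was 0 when water replicate 1, high NH4+ replicate 1 or high NH4+ replicate 2 was left out. Leaving out water replicate 3 gave 2, leaving out low NH4+ replicate 1 gave 3, and leaving out either water replicate 2 or low NH4+ replicate 2 gave 14. The number called over all probe sets in these fits also moved, from 6 to 728. The direction of all 32 members stayed as it was in each of these fits and after quantile normalization or median centring.

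**Figure D1:**
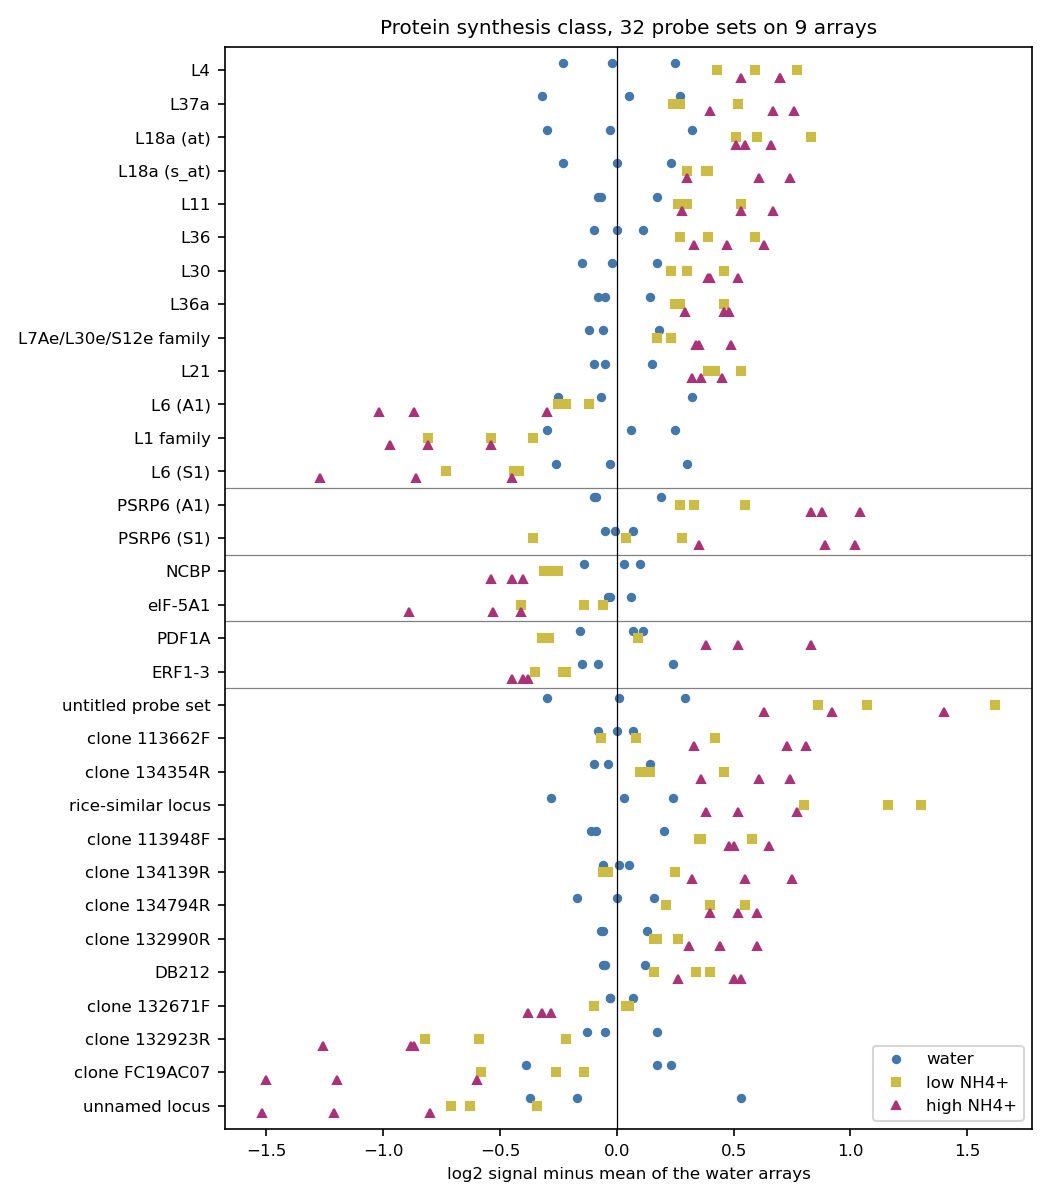
Each row is a member and each point an array, plotted as log2 signal minus the mean of the member's 3 water arrays (circles water, squares low NH4+, triangles high NH4+), with lines between the role groups (ribosomal, plastid ribosomal, initiation, release or processing, no named role). The high NH4+ triangles lie to the right of all water circles in 22 rows and to the left in 10, but after median centring L6 (A1) and clone 132671F overlap, while the low NH4+ squares overlap the circles in 11 rows.

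At low NH4+ the size of the differences depended on how the arrays were scaled. Of the 32 members, 20 were higher and 12 lower than in water, but 28 were higher after the arrays were centred on their medians. The low NH4+ and water arrays did not overlap for 15 higher members (7.78% of all probe sets tested) and 6 lower members (17.5%), or 21 and 0 once the arrays were median-centred and 11 and 4 once they were quantile-normalized. The test called 2 members, both higher, beside 2.98% of all probe sets (0.540% higher and 2.44% lower). Leaving out water replicate 2 raised the number to 6 and leaving out low NH4+ replicate 3 raised it to 7, while dropping any single one of the other 7 arrays gave 0. The median log2 fold change of the members was 0.22, against -0.16 for all probe sets tested. After median centring the members' median was 0.59 at low and 0.58 at high NH4+, and 8 and 7 members were called. Between high and low NH4+, 18 members were higher at the high dose and 14 lower (8 higher and 24 lower after median centring), with a median of 0.07, the same as that of all probe sets tested. None was called by limma, beside 0.900% of all probe sets (0.840% higher and 0.0600% lower), although 12 had an unadjusted p below 0.05, and 4 were called without low NH4+ replicate 3. Non-overlap between the doses was found for 6 higher members (15.1% of all probe sets) and 9 lower members (9.64%). The largest of a member's differences was that between high NH4+ and water in 26 members, between low NH4+ and water in 4 and between the NH4+ doses in 2, but in 12, 14 and 6 members after median centring.

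**Figure D2:**
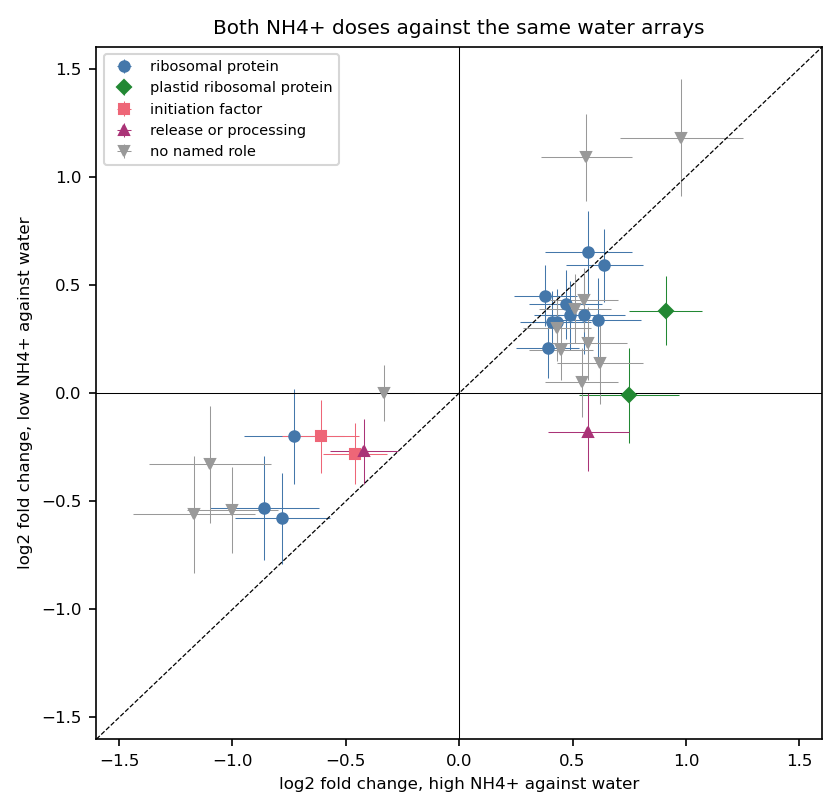
Each point is a member, with its log2 fold change of high NH4+ against water on the horizontal axis and of low NH4+ against water on the vertical axis, bars of ± 1 SE from the limma fit and a dashed line of equal change. Both axes use the same water arrays, so the points would lie along a slope even if the doses had nothing in common. The 10 lower members, a group set by its high NH4+ values, lie above the line, and most ribosomal members lie close to it. At the top right 2 unnamed probe sets lie above it, whereas the PSRP6 and PDF1A points lie below it. Median centring of the arrays moves the points up by about the shift of all probe sets.

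Of the 32 members, 13, from the large subunit where the subunit is known, carried the name of a ribosomal protein with no organelle given, and 10 of these 13 were higher in both NH4+ treatments than in water, in all scalings. They were L4, L11, L18a (from 2 probe sets), L21, L30, L36, L36a, L37a and a protein of the L7Ae/L30e/S12e family. At high NH4+ their log2 fold changes ran from 0.38 to 0.64 with a median of 0.48, and the high NH4+ arrays lay above the water arrays for all 10 (13.4% of all probe sets). At low NH4+ they ran from 0.21 to 0.65 with a median of 0.36, and 8 of the 10 had no overlap with water (7.78% of all probe sets), or 7 after quantile normalization and 10 after median centring.

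L4, a core protein of the large subunit that lines the tunnel through which the new chain leaves, was the only one of the 10 called at high NH4+, and its values on all arrays are given for this reason, seen in the data. Its log2 signal was 9.89, 10.16 and 9.68 with water, 10.34, 10.68 and 10.50 with low NH4+ and 10.61, 10.61 and 10.44 with high NH4+. All 6 NH4+ arrays stood above all 3 water arrays, and the doses overlapped. The log2 fold change was 0.64 ± 0.17 at high NH4+ (limma adjusted p = 0.0923) and 0.59 ± 0.17 at low NH4+ (adjusted p = 0.124). The call at high NH4+ held in 3 of the 9 fits that left out an array.

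L18a and L21, further proteins of the large subunit, were the ribosomal members whose largest difference as deposited was at low NH4+. Once the arrays were median-centred, 9 of the 10 higher ribosomal probe sets were lower at high than at low NH4+. The first L18a probe set, of the plain "at" kind, read 10.72, 11.07 and 10.45 with water, 11.35, 11.58 and 11.26 with low NH4+ and 11.30, 11.41 and 11.26 with high NH4+. Every NH4+ array exceeded every water array, and the doses were almost level, with log2 fold changes of 0.65 ± 0.19 at low and 0.57 ± 0.19 at high NH4+. L21 read 10.89, 11.09 and 10.84 with water, 11.36, 11.47 and 11.33 with low NH4+ and 11.26, 11.39 and 11.30 with high NH4+. Here too the water arrays lay apart below the rest, and the log2 fold change was 0.45 ± 0.14 at low and 0.38 ± 0.14 at high NH4+. High minus low NH4+ became -0.32 after median centring for the first L18a probe set and for L21 alike. The second L18a probe set, of the "s_at" kind whose probes can match more than 1 transcript, is tied to the same Arabidopsis gene but was not marked as redundant with the first. It was higher by 0.55 ± 0.18 at high and 0.36 ± 0.18 at low NH4+, and like the first had no overlap of either dose with water.

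The other 6 higher proteins followed closely. L37a, a small zinc-binding protein of the large subunit, was higher by 0.61 ± 0.19 at high NH4+ and 0.34 ± 0.19 at low NH4+, where its arrays overlapped those with water. L11, which sits beside the 5S RNA, was higher by 0.49 ± 0.16 and 0.36 ± 0.16. L36 and L36a, both small proteins, were higher by 0.47 ± 0.16 and 0.41 ± 0.14 at high and by 0.41 ± 0.16 and 0.33 ± 0.14 at low NH4+. L30 was higher by 0.43 ± 0.15 and 0.33 ± 0.15, the latter 0.06 after quantile normalization. The L7Ae/L30e/S12e family protein, from a family of RNA-binding proteins, was higher by 0.39 ± 0.14 at high NH4+ and by 0.21 ± 0.14 at low NH4+, where it overlapped with water. None of these 6 was called in either comparison with water (adjusted p from 0.124 to 0.157 at high NH4+).

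As deposited, these 10 probe sets differed little between the doses. High minus low NH4+ ranged from -0.07 to 0.27 on the log2 scale with a median of 0.10, of which 8 were above 0, 7 after quantile normalization and 1 after median centring, and none had an unadjusted p below 0.05. Only the L7Ae/L30e/S12e family protein had no overlap between the doses. Averaged over the 10 probe sets, the deviation from the water mean was -0.09, 0.20 and -0.11 with water, 0.40, 0.44 and 0.37 with low NH4+ and 0.53, 0.58 and 0.37 with high NH4+. The group means were 0.40 ± 0.04 (SD, n = 3) for low and 0.50 ± 0.11 for high NH4+, around a spread of 0.17 among the water arrays. Median centring turned the order of the doses, with means of 0.77 for low and 0.61 for high NH4+.

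**Figure D3:**
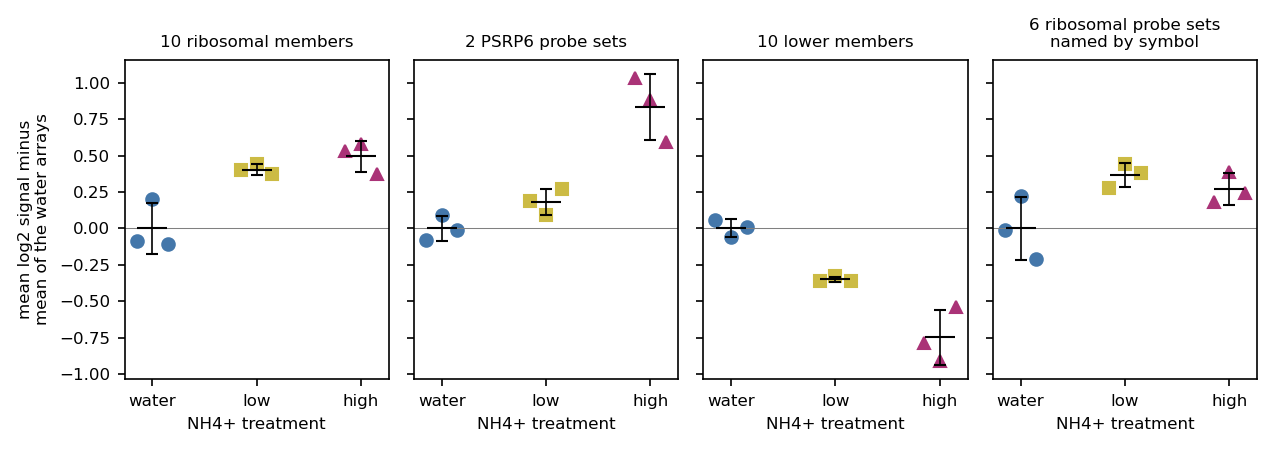
Each point is an array, plotted as the mean over a set of probe sets of log2 signal minus the mean of the water arrays, for the 10 higher ribosomal members, both PSRP6 probe sets, the 10 lower members and 6 ribosomal probe sets that are no members. Horizontal bars are the mean and vertical bars ± 1 SD of 3 arrays. The ribosomal members reach 0.40 at low and 0.50 at high NH4+, PSRP6 reaches 0.18 and 0.83, and the lower members reach -0.35 and -0.75. After median centring the lower members stand at 0.01 at low NH4+ and -0.63 at high NH4+, so their low NH4+ position depends on the scaling. The ribosomal members then stand at 0.77 at low and 0.61 at high NH4+, so the order of their doses depends on it too.

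Among arrays of the same treatment, a difference that the rule for membership did not use, these ribosomal members shared an order on the water and high NH4+ arrays but not on the low NH4+ arrays. Water replicate 2 was the highest water array for 10 of 10, although it was highest for 24.6% of all probe sets tested. High NH4+ replicate 2 was the highest of its treatment for 7 of 10 (24.9% of all probe sets), and high NH4+ replicate 3 the lowest for 8 of 10 (38.4%). Among the low NH4+ arrays, replicates 1, 2 and 3 were highest for 4, 4 and 2 of the 10. The unnamed members that were higher at high NH4+ shared the array order, since water replicate 2 was highest for 9 of 9 and high NH4+ replicate 3 lowest for 7 of 9. The members share their arrays and scaling, and the part of either in this order was not tested.

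A further 3 ribosomal probe sets, for 2 proteins, were lower in NH4+-treated roots. L6, another protein of the large subunit, was measured by 2 probe sets that the study marked as redundant. The first (S1) read 8.99, 9.55 and 9.22 with water, 8.83, 8.52 and 8.81 with low NH4+ and 8.39, 7.98 and 8.80 with high NH4+. The second (A1) read 11.71, 12.10 and 11.53 with water, 11.53, 11.66 and 11.56 with low NH4+ and 10.91, 10.76 and 11.48 with high NH4+. In both, high NH4+ replicates 1 and 2 were well below the water arrays and replicate 3 was nearest to them. The log2 fold change at high NH4+ was -0.86 ± 0.24 for S1 (called, adjusted p = 0.0966) and -0.73 ± 0.22 for A1 (adjusted p = 0.119). At low NH4+ it was -0.53 ± 0.24 for S1 (-0.17 after median centring), with no overlap with water, and -0.20 ± 0.22 for A1, which overlapped and became 0.16 after median centring.

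The L1 family protein read 7.54, 7.18 and 7.73 with water, 6.94, 6.67 and 7.12 with low NH4+ and 6.94, 6.51 and 6.67 with high NH4+. Each NH4+ array lay below each water array, and the doses overlapped. It was called at high NH4+, with a log2 fold change of -0.78 ± 0.21 (adjusted p = 0.0882), and had -0.58 ± 0.21 at low NH4+ (adjusted p = 0.161), which was -0.21 with overlap after either rescaling. The L1 family has cytosolic and organellar members and the annotation does not say which this is.

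PSRP6, a plastid-specific ribosomal protein that has no counterpart in bacteria, was higher at high NH4+ by both of its probe sets. Its A1 probe set read 7.81, 8.10 and 7.82 with water, 8.24, 8.46 and 8.18 with low NH4+ and 8.95, 8.79 and 8.74 with high NH4+, and its redundant S1 probe set read 7.84, 7.88 and 7.96, then 7.93, 7.53 and 8.17, then 8.91, 8.78 and 8.24. As deposited, the A1 values formed 3 separate steps without overlap. The low NH4+ values of S1 fell on either side of the water values, and all its high NH4+ values lay above both. At high NH4+ the log2 fold change was 0.91 ± 0.16 for A1 (called, adjusted p = 0.0431, the smallest of the members) and 0.75 ± 0.22 for S1 (adjusted p = 0.111). At low NH4+ it was 0.38 ± 0.16 for A1 and -0.01 ± 0.22 for S1, the latter 0.29 after quantile normalization and 0.35 after median centring. High exceeded low NH4+ by 0.53 ± 0.16 and 0.76 ± 0.22 (adjusted p = 0.162 for both), a difference that shrank to 0.29 and 0.52 after median centring. With that scaling the doses overlapped for both probe sets, and for S1 they also did after quantile normalization. The call for A1 at high NH4+ held in 6 of 9 fits with an array left out, and was lost when water replicate 1, high NH4+ replicate 1 or high NH4+ replicate 2 was left out (adjusted p = 0.17, 0.156 and 0.187). The leaf genes CAB4 and PSBO, which also encode plastid proteins, were at 7.32, 5.67 and 6.76 and at 6.54, 4.77 and 6.35 on the high NH4+ arrays, none of them above the highest water array (8.29 and 8.39). Both were dim, with a signal of 100 reached on 6 and 4 of the 9 arrays, and the part of plastid content was not tested.

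Both initiation factors in the class were lower at high NH4+. eIF-5A1 is 1 of the tomato genes for eIF-5A, a factor that carries the modified amino acid hypusine and helps ribosomes past difficult stretches such as runs of proline. It read 11.69, 11.68 and 11.78 with water, 11.58, 11.66 and 11.31 with low NH4+ and 11.19, 10.83 and 11.31 with high NH4+. The water values were close together and above all others, and high NH4+ was at or below the lowest low NH4+ value. The log2 fold change was -0.61 ± 0.17 at high NH4+ (adjusted p = 0.101, just outside the threshold) and -0.20 ± 0.17 at low NH4+, the latter 0.16 after median centring. The member just inside the threshold was clone 113948F (adjusted p = 0.0984).

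The other 3 eIF-5A genes with a symbol on the array were not in the study's list, so they were not chosen by these contrasts. eIF-5A2 read 12.61, 12.78 and 12.16 with water, 12.86, 13.08 and 12.94 with low NH4+ and 12.48, 12.75 and 12.72 with high NH4+. Its high NH4+ values lay within its water range, and its low NH4+ values above it. The log2 fold change at high NH4+ was 0.14 ± 0.19 for eIF-5A2, 0.08 ± 0.21 for eIF-5A3 and -0.08 ± 0.19 for eIF-5A4, the last 0.04 after median centring (adjusted p = 0.706, 0.848 and 0.839). At low NH4+ they stood at 0.44, 0.25 and 0.28, which became 0.09, -0.08 and -0.10 after quantile normalization, and none was called. Whether eIF-5A1 differed from its relatives in its response was not tested. These genes are similar in sequence, and how far their probes also detect each other's transcripts is not known from the files.

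**Figure D4:**
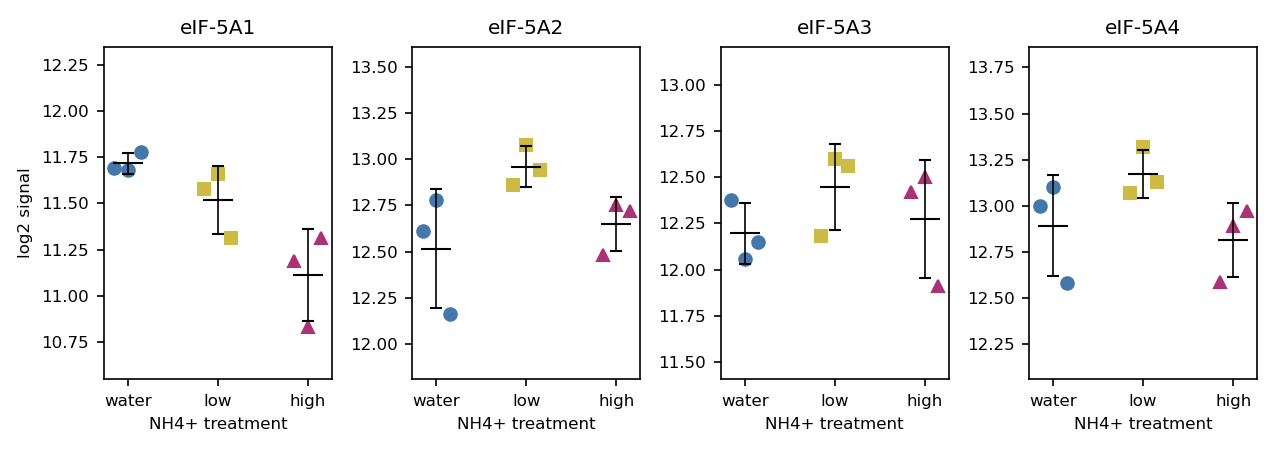
Each panel is an eIF-5A gene and each point an array, with log2 signal on the vertical axis (axes of equal length, different offsets) and bars for the mean ± 1 SD of 3 arrays per treatment. eIF-5A1, the member of the class, steps down from 11.72 with water to 11.52 with low and 11.11 with high NH4+, although the low NH4+ step turns upward after median centring, while the high NH4+ points of the others overlap their water points. The study's list, made by these contrasts, held eIF-5A1 and not the others, so this contrast is partly built in.

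The other initiation factor was NCBP, a cap-binding protein related to eIF4E, which recognises the 5′ cap of mRNA. NCBP read 10.94, 10.70 and 10.87 with water, 10.53, 10.55 and 10.59 with low NH4+ and 10.44, 10.30 and 10.39 with high NH4+. As deposited these were 3 steps without overlap, but low NH4+ overlapped with water after median centring. The log2 fold change was -0.46 ± 0.14 at high NH4+ (adjusted p = 0.108) and -0.28 ± 0.14 at low NH4+ (0.08 after median centring). The canonical cap-binding factor eIF4E1, no member, had -0.36 ± 0.22 and -0.57 ± 0.22 (adjusted p = 0.365 and 0.178), and its high NH4+ arrays overlapped those with water.

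The last steps of translation were represented by ERF1-3, a release factor of the kind that reads stop codons, and PDF1A, a peptide deformylase, which removes the formyl group from the first methionine of proteins made in organelles. ERF1-3 read 10.16, 10.09 and 10.48 with water, 10.01, 10.02 and 9.89 with low NH4+ and 9.86, 9.79 and 9.84 with high NH4+. All 3 treatments were separate as deposited, but low NH4+ overlapped with water after median centring. The log2 fold change was -0.42 ± 0.15 at high NH4+ (adjusted p = 0.16) and -0.27 ± 0.15 at low NH4+ (0.09 after median centring).

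PDF1A read 6.68, 6.45 and 6.72 with water, 6.32, 6.29 and 6.70 with low NH4+ and 7.44, 7.13 and 6.99 with high NH4+. The high NH4+ arrays stood above the other 6, which overlapped each other. It was dim, with water replicate 2 and low NH4+ replicates 1 and 2 under a signal of 100. Its largest difference as deposited was between the doses, 0.75 ± 0.18 (adjusted p = 0.131), with 0.57 ± 0.18 against water at high NH4+ (adjusted p = 0.13). The difference between the doses became 0.48 after quantile normalization and 0.50 after median centring, smaller than that of high NH4+ against water (0.73 and 0.69). At low NH4+ it had -0.18 ± 0.18, which became 0.25 after quantile normalization and 0.19 after median centring. PDF1B, the related deformylase and no member, had -0.45 ± 0.19 at high NH4+ (adjusted p = 0.21), where its 3 arrays (7.66, 7.50 and 7.45) lay below the water arrays (8.02, 7.77 and 8.16).

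As many as 13 members carried no named role in the array annotation, 9 of them higher and 4 lower at high NH4+. They entered the class by the study's own assignment, and their titles name no part of the translation machinery. Of these, 2 had, as deposited, their largest difference at low NH4+ and were the only members called there. The rice-similar locus, weakly similar to a rice sequence, read 8.24, 8.76 and 8.55 with water, 9.68, 9.82 and 9.32 with low NH4+ and 8.90, 9.04 and 9.29 with high NH4+. The low NH4+ arrays were above all others and the high NH4+ arrays in between, with a log2 fold change of 1.09 ± 0.20 at low NH4+ (adjusted p = 0.063) and 0.56 ± 0.20 at high NH4+ (adjusted p = 0.16). The untitled probe set, an "s_at" set that the annotation leaves blank, read 9.00, 9.28 and 8.69 with water, 9.85, 10.61 and 10.06 with low NH4+ and 9.62, 9.91 and 10.39 with high NH4+. Its doses overlapped and both lay above water, with log2 fold changes of 1.18 ± 0.27 at low (adjusted p = 0.0945) and 0.98 ± 0.27 at high NH4+ (adjusted p = 0.0966). Each of the calls at low NH4+ held in 2 of the 9 fits that left out an array, those without water replicate 2 or low NH4+ replicate 3.

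The other 7 higher unnamed members had log2 fold changes of 0.43 to 0.62 at high NH4+ that resembled those of the ribosomal proteins. Clone 113948F was called, at 0.55 ± 0.15, and had 0.43 ± 0.15 at low NH4+ with no overlap with water, which became 0.18 with overlap after quantile normalization. Clone 134794R and DB212, the latter annotated as a protein of giant cells that root-knot nematodes induce, had 0.51 ± 0.16 and 0.43 ± 0.15 at high and 0.39 ± 0.16 and 0.30 ± 0.15 at low NH4+, again without overlap. Quantile normalization reduced the low NH4+ values to 0.17 and 0.09, with overlap. The remaining 4 stood closer to water at low NH4+. Clones 134139R and 113662F had 0.54 ± 0.16 and 0.62 ± 0.19 at high but 0.05 ± 0.16 and 0.14 ± 0.19 at low NH4+, and clones 134354R and 132990R had 0.57 ± 0.17 and 0.45 ± 0.14 at high and 0.23 ± 0.17 and 0.20 ± 0.14 at low NH4+.

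The largest decreases called in the class were in unnamed members. An unnamed transcribed locus read 10.82, 10.12 and 9.92 with water, 9.58, 9.95 and 9.66 with low NH4+ and 8.77, 9.08 and 9.49 with high NH4+, each array of the high dose below the other 6. Its log2 fold change at high NH4+ was -1.17 ± 0.27 (fold 0.444, called, adjusted p = 0.0671), the largest of the members in size. Clone FC19AC07 read 8.65, 8.09 and 8.71 with water, 8.22, 8.34 and 7.90 with low NH4+ and 7.28, 6.98 and 7.88 with high NH4+.

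For clone FC19AC07 the low dose overlapped with water and the high dose did not, and it was called at high NH4+ with -1.10 ± 0.27 (adjusted p = 0.0743), while low NH4+ gave -0.33 ± 0.27, or 0.03 after median centring. Clone 132923R read 8.97, 8.67 and 8.75 with water, 7.98, 8.21 and 8.58 with low NH4+ and 7.54, 7.92 and 7.93 with high NH4+. These were 3 steps without overlap as deposited, but low NH4+ overlapped with water after either rescaling. The clone was called at high NH4+ at a fold of 0.499 (SE 0.20 on the log2 scale, adjusted p = 0.0508). At low NH4+ its log2 fold change was -0.54 ± 0.20 (-0.18 after median centring). Clone 132671F had the smallest difference of the class at high NH4+, -0.33 ± 0.13, with 0.00 ± 0.13 at low NH4+ (0.36 after median centring). The calls at high NH4+ held in 6, 4 and 5 of the 9 fits without an array for the unnamed locus, clone FC19AC07 and clone 132923R, and all 3 calls were lost without water replicate 1, high NH4+ replicate 1 or high NH4+ replicate 2.

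Across roles, the 10 lower members and the ribosomal members differed in how they stood at the low dose. The lower members had a median log2 fold change of -0.31 at low and -0.76 at high NH4+. Of these, 8 of 10 were lower at high than at low NH4+ without overlap (9.64% of all probe sets). The group was set by its values on the high NH4+ arrays, so a place below low NH4+ is partly built in. After median centring the median of these 10 was 0.06 at low and -0.64 at high NH4+, and 6 of the 10 stood above water at low NH4+. Averaged over the 10, their deviation from water was -0.36, -0.33 and -0.36 with low NH4+ and -0.79, -0.91 and -0.54 with high NH4+. High NH4+ replicate 3, which was lowest for most of the higher ribosomal members, was the highest of its treatment for 7 of these 10 (33.3% of all probe sets), so that it lay nearest to water for both sets.

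The ribosomal proteins found outside the class had not entered the study's list, which the same contrasts made on these arrays. Small differences and few calls are therefore partly built into them, and they share the water arrays with the members. A symbol was available for 909 of the 10038 tomato probe sets, and 6 of these, for 5 ribosomal proteins, were none of the study's listed transcripts. The group means of all 6 were above water at both doses, but their arrays mostly overlapped those with water at high NH4+. There only rpl38 had no overlap (13.4% of all probe sets). At low NH4+ rpl38, RPL37 and 1 of the RPS25 probe sets had none (7.78% of all probe sets). At high NH4+ the log2 fold changes were 0.23 ± 0.16 for RPL3, 0.29 ± 0.17 for RPL8, 0.20 ± 0.16 for RPL37, 0.42 ± 0.17 for rpl38 and 0.23 ± 0.18 and 0.26 ± 0.17 for the probe sets of RPS25. At low NH4+ they were 0.21, 0.18, 0.40, 0.53, 0.46 and 0.39, but those of RPL3 and RPL8 became -0.12 and -0.07 after quantile normalization. None of the 6 was called by limma in any comparison, but rpl38 was called at low NH4+ after median centring and at both doses without water replicate 2. An unadjusted p below 0.05 was reached by rpl38 at high NH4+ and by rpl38, RPL37 and both RPS25 probe sets at low NH4+.

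The rpl38 signal, nearest in size to the members, was 11.12, 11.43 and 10.90 with water, 11.62, 11.81 and 11.62 with low NH4+ and 11.60, 11.62 and 11.48 with high NH4+. Neither dose overlapped with water (adjusted p = 0.197 at high and 0.137 at low NH4+). Averaged over the 6 probe sets the deviation from water was 0.36 ± 0.08 (SD, n = 3) at low and 0.27 ± 0.11 at high NH4+, with the water arrays at -0.01, 0.22 and -0.21. Water replicate 2 was the highest water array for 6 of 6 and high NH4+ replicate 2 the highest of its treatment for 6 of 6, the arrays that also stood highest for most of the 10 ribosomal members. The lowest high NH4+ array was replicate 1 for 3 and replicate 3 for 3 of the 6. The array's control probe set for the 3′ end of elongation factor EF-1 alpha, which delivers aminoacyl-tRNA to the ribosome, stood at 12.41, 12.49 and 11.94 with water, 12.73, 12.96 and 12.68 with low NH4+ and 12.13, 12.47 and 12.56 with high NH4+. It was thus highest on the low NH4+ arrays. The 3′ to 5′ difference of actin was widest on low NH4+ replicates 1 and 2 (1.78 and 3.00) but 0.88 on replicate 3, and the part of RNA quality in the low NH4+ values was not tested.

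Of the 14 probe sets found by symbol for translation in all, eIF-5A1 and PDF1A were the only members, and none was called in any of the 3 comparisons as deposited. At high NH4+ 2 of the 14, a count that includes these members, were called after quantile normalization or with signals under 100 set to 100. Median centring gave 1, and single arrays left out gave 0 to 2. At low NH4+ 1 was called after median centring or without water replicate 2. Between the doses 1 was called without low NH4+ replicate 3. LysRS, which loads lysine onto its tRNA, had the largest difference among them, 0.79 ± 0.28 at low NH4+ (adjusted p = 0.16), with 0.41 ± 0.28 at high NH4+. When all 21 probe sets that a name ties to a ribosomal protein were counted, members included, 4 were called at high NH4+, all of them members (L4, L6 S1, the L1 family protein and PSRP6 A1). The probe sets among the 21 that are no members had not entered the study's list, so nothing is read from this.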

How the data were processed

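The authors hybridized RNA of 9 patch root samples to Affymetrix Tomato GeneChips, computed MAS5 signals in Affymetrix Expression Console (version of neither given in the sources used here) and deposited the natural log of each signal, which was converted to log2. Of 10209 probe sets, 171 controls were left out, and those with a signal of 100 (4.605 as a natural log) on at least 1 array were tested. One model of the 3 treatments was fitted with limma 3.58.1 in R 4.3.3 (6 residual and 2.87 prior degrees of freedom), with Benjamini-Hochberg adjustment within each comparison, at a 10% rate, as in the methods. The script was tested on simulated data.

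Members are the probe sets that the study's annotated list of 607 assigns to protein synthesis. From that list only the identifiers, titles, classes and redundancy marks were used, not its fold changes and p-values, which are the study's own comparisons. Members and lists were chosen with earlier results of these data known. Roles were read from titles, and 2 of the 32 members had a symbol. Values on all arrays are given for redundant pairs, the 3 largest changes at high NH4+ per role, and members whose largest difference involves low NH4+ rather than high NH4+ against water. L4, rpl38, PDF1B and eIF-5A2 were added after their values were seen. The translation genes found by symbol were listed after the annotation had been read. GeneChip probe and transcript sequences were not used here.

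The alternatives were median centring, quantile normalization, no filter, signals under 100 set to 100, the methods' test of 1 probe set at a time, the replicate number as a block, a 5% rate and each array left out. Leaving out low NH4+ replicate 2 together with water replicate 3 was added after seeing the data.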

Additional observations from a re-analysis of the deposited data

How the results depend on the processing

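Member directions at high NH4+ did not depend on the setting, whereas the numbers called did. Called members at high NH4+ against water (9) became 2 with no filter, 20 with quantile normalization and 31 with signals under 100 set to 100, a floor for dim signals. They became 4 with the methods' test, 1 at a 5% rate and 2 without low NH4+ replicate 2 and water replicate 3 together. Median centring gave 7. Single arrays left out gave 0 to 14. At low NH4+ against water (2) the number became 0 with no filter, with the methods' test, at a 5% rate and without both of those arrays, 1 with quantile normalization and 8 with median centring, and ranged from 0 to 7 with single arrays left out. Between the doses it stayed at 0, except with single arrays left out (0 to 4). The 4 called ribosomal probe sets at high NH4+ became 1 with no filter, with the methods' test, at a 5% rate and without both arrays, 9 with quantile normalization, 15 with the floor, and 0 to 7 with single arrays left out.

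Median centring moved the median log2 fold change of all probe sets tested to 0.04 at high NH4+, 0.20 at low NH4+ and -0.17 between the doses. With it the members' median became 0.58 at high NH4+, 0.59 at low NH4+ and -0.18 between the doses, which turns the last direction. Single arrays left out gave 0.18 to 0.30 at low NH4+. The median of all ribosomal probe sets with no organelle named was 0.36 at low NH4+, 0.20 with quantile normalization and 0.72 with median centring. This set holds the L1 family protein, whose compartment is not given. The number called over all probe sets at high NH4+ (435, of which 182 higher) was 141 with no filter, 694 (352 higher) with quantile normalization, 358 (222 higher) with median centring, 651 with the floor, 139 with the methods' test, 99 at a 5% rate and 6 to 728 with single arrays left out. At low NH4+ (199, 36 higher) it was 46, 71 (38 higher), 320 (211 higher), 143, 1, 4 and 4 to 1126, and between the doses (60, 56 higher) 11, 2, 14 (12 higher), 66, 0, 2 and 0 to 860.

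The deviations of same-numbered arrays from their group means had correlations of -0.38 to 0.35. Arrays of different number were not compared, so this does not settle whether the numbers pair the samples. The plants were grown in blocks, and whether a replicate number marks a block is not stated. With the replicate block, 3 members were called at high NH4+, 2 at low NH4+ and 0 between the doses, and 2 ribosomal probe sets at high NH4+. The cause of each shift was not tested unless named. Precision was limited by 3 arrays per treatment.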
